A study of Mus musculus with 3 samples.

Results

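The genes described here encode histone lysine demethylases (Kdm), histone lysine and related methyltransferases (Kmt, Setd), protein arginine methyltransferases (Prmt), histone deacetylases (Hdac), sirtuins (Sirt), and the core subunits of the Polycomb repressive complexes PRC2 (Ezh1, Ezh2, Eed, Suz12) and PRC1 (Bmi1, Ring1, Rnf2). They were chosen by gene symbol alone, by these family names followed by a digit and by the 7 Polycomb symbols, which gave 66 of the 27998 genes in the files. The cells were C57BL/6J mouse bone marrow cells in 3 populations of B cell development sorted on surface markers: lymphoid-primed multipotent progenitors (LMPP; cKit+Sca1+Flt3+IL7Ra-B220-), common lymphoid progenitors (CLP; cKit+Sca1+Flt3+/-IL7Ra+B220-) and pro-B cells (cKit+Sca1-Flt3-IL7Ra+B220+). Each population was 1 library of single cells made with Chromium 3' version 2 chemistry, and the labels give no age, no sex and no number of mice. The study set these populations beside a cultured progenitor system, which was not analysed here.

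PRC2 places methyl groups on lysine 27 of histone H3, the mark of Polycomb repression, through one of its alternative catalytic subunits, Ezh1 or Ezh2, while Suz12 holds the complex together and Eed reads the mark. PRC1 adds ubiquitin to histone H2A through Ring1 or Rnf2, with Bmi1 as a partner of the catalytic subunit. Demethylases, deacetylases and methyltransferases of the other families remove or add further marks at promoters and enhancers, and in mouse Ezh2 is known to be needed for normal pro-B cell development.

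A total of 579 LMPP, 948 CLP and 1106 pro-B cells passed the filters, with 4014657, 5967352 and 7367156 unique molecular identifiers (UMIs, counts of captured transcripts) and medians of 6789, 6258.5 and 5687.5 UMIs per cell. Levels are UMIs summed over the cells of a library per 1000000 UMIs (CPM), so a level of 10 CPM stood for 40.1, 59.7 and 73.7 UMIs in LMPP, CLP and pro-B. Lineage genes went with the labels: the summed level of 8 B lineage genes was 45.1, 782 and 16125 CPM in that order, and Flt3 was at 279, 300 and 5.16 CPM. Kit, on which all 3 gates were positive, was at 85.2, 28.3 and 7.47 CPM. The 7 plasmacytoid dendritic marker genes summed to 120, 590 and 5.84 CPM and the 7 granulocyte marker genes to 387, 81.9 and 0.407 CPM. Without the cells that held 10 or more UMIs of other lineages, the log2 ratio of pro-B over CLP was 2.31 for Ezh2 and -2.87 for Kdm6b, against 2.11 and -2.73 with them. Pairs of libraries shared 1 to 3 barcode sequences. Genes of ribosomal proteins took 43.5%, 41.9% and 29.6% of the UMIs. With 1 library per population there is no replicate spread and no test: each interval is an exact 95% interval for counting error alone, and a difference between populations cannot be told apart from one between droplet runs. Fewer cells with a transcript and fewer transcripts per cell cannot be told apart from a summed level either. Genes that differed by 2-fold or more and reached 10 CPM on the higher side are called higher or lower below.

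Ezh2 and Kdm6b, a writer and an eraser of the Polycomb mark, had the highest and the lowest ratio of pro-B cells over CLP among the 50 members tested. Ezh2 was 4.31-fold higher in pro-B cells than in CLP, Ezh1 was 2.38-fold lower, and Kdm6b, which removes the PRC2 mark, was 6.62-fold lower. Kdm5b, Kdm7a, Setd4, Setd7, Sirt3, Hdac4 and Kmt2d were also lower in pro-B cells, and Hdac8 and Hdac1 were higher. In all, 3 of the 50 were higher and 9 lower, where 13.9% of all genes tested were higher and 13.6% lower. Among cells low in cell cycle genes, compared below, Kdm5b, Kdm7a, Setd4, Setd7, Sirt3 and Kmt2d were not called. Among the remaining cells compared there, Sirt3, Kmt2d, Hdac4 and Hdac1 were not called. Between CLP and LMPP the differences were few, with Hdac7, Suz12 and Kdm5d higher in CLP and no member lower. Of all genes tested, 4.36% were higher and 3.59% lower in CLP.

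The promoters of the 4 PRC2 core genes are shown because their levels differed in different directions across the libraries. Each sequence runs from 250 bases before to 20 bases after the RefSeq transcript start on GRCm38.p6, in the direction of the gene. Capitals mark exact matches to an E2F motif (TTTGGCGC, TTTCCCGC, TTTCGCGC or TTTGCCGC) or to the EBF motif (TCCC and GGGA with any 2 bases between them), each searched on both strands. The Ezh2 window lies at chr6:47595011-47595280 on the minus strand, the Ezh1 window at chr11:101226444-101226713 on the minus strand, the Eed window at chr7:89980957-89981226 on the minus strand and the Suz12 window at chr11:79992856-79993125 on the plus strand.
Ezh2: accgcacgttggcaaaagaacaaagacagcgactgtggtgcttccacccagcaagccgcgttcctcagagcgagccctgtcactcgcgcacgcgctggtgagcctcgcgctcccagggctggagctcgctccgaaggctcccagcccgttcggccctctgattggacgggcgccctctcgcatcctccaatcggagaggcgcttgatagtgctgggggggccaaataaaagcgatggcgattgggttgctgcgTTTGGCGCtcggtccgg
Ezh1: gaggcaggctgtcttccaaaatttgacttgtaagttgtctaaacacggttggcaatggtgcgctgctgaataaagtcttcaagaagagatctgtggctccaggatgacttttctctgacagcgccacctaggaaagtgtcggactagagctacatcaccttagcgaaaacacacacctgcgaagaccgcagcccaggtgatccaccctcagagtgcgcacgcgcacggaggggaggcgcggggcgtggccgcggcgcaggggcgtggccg
Eed: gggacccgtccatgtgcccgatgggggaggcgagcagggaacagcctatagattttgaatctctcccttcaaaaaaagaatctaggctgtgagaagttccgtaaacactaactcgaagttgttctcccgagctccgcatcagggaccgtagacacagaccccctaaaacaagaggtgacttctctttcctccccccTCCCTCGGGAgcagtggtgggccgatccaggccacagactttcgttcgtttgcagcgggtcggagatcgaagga
Suz12: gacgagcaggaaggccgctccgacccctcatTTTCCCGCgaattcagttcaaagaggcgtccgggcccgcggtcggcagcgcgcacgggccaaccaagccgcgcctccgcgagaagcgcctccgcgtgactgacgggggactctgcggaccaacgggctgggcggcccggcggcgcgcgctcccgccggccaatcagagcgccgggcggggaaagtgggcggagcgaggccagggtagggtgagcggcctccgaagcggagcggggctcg
The window of Ezh2 held TTTGGCGC with its first base 4 bases into the transcript, and that of Suz12 held TTTCCCGC with its first base at position -219. The window of Eed held the EBF motif at -54, which reads the same on both strands because the motif is its own reverse complement. No letters of either kind were found in the Ezh1 window. An E2F motif occurred in 2.26% of 32851 RefSeq promoter windows of 300 bases and the EBF motif in 0.904%. Of the 66 genes, 54 had a RefSeq window, and 3 of these 54 held an E2F motif (Ezh2, Suz12 and Sirt4). Counted by gene in the same way, 2.6% of 27025 genes held an E2F motif and 1.06% the EBF motif. The GC content of the 4 windows was 64.4% for Ezh2, 57.8% for Ezh1, 55.2% for Eed and 74.1% for Suz12. These matches describe letters and carry no evidence of binding.

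Nearly all members were detected. At least 1 UMI was found for 65 members in LMPP and for 64 in CLP and in pro-B cells, and Prmt8, an arginine methyltransferase best known from brain, had none in any library. Kdm6bos, an antisense transcript of the Kdm6b locus, had 1 UMI in LMPP and none elsewhere. A level of 10 CPM was reached by 49, 50 and 43 members along LMPP, CLP and pro-B. The median member was at 19.6 CPM in LMPP, 22.9 CPM in CLP and 16.5 CPM in pro-B cells, while the sum over all members was 1921, 2118 and 2424 CPM. The sum was thus highest in pro-B cells and the median lowest there. Ezh2 alone made up 406 CPM of the pro-B sum, and the demethylase genes together came to 392, 432 and 261 CPM across LMPP, CLP and pro-B.

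**Figure D1:**
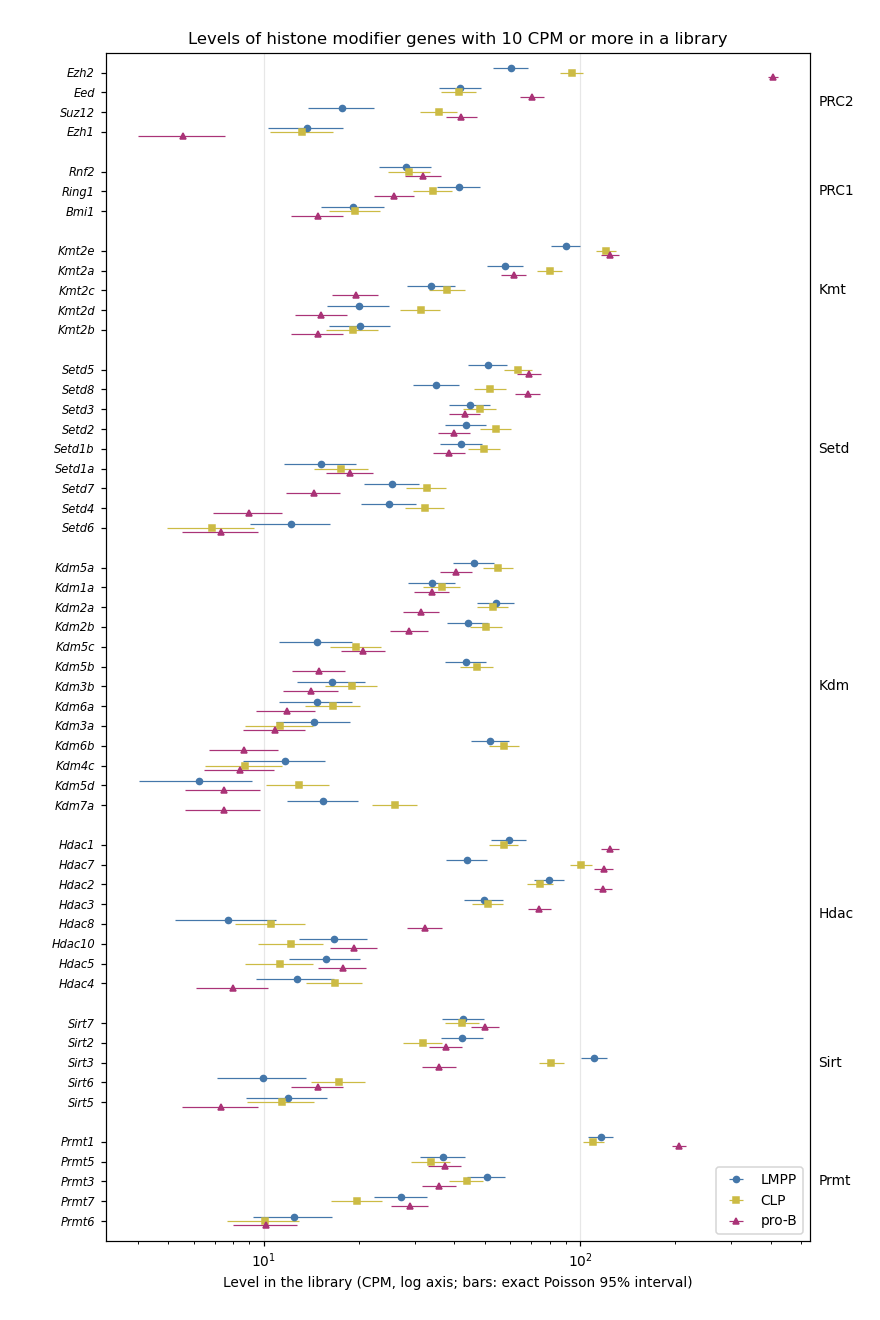
Level of each member with 10 CPM or more in a library (CPM, log axis), grouped by family, in LMPP, CLP and pro-B cells; points are levels and bars exact Poisson 95% intervals. Ezh2 in pro-B cells, at 406 CPM, is the point farthest to the right, and most demethylase genes have their pro-B point left of the others.

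For CLP against LMPP, 52 members reached 10 CPM in one of the libraries. Of these 3 were higher in CLP and 0 lower, against 4.36% of the 7747 genes tested called higher and 3.59% called lower. The median log2 ratio was 0.11 over the members and -0.01 over all genes tested. None of the 3 called members had its whole interval past 2-fold. For pro-B cells against CLP, 3 of 50 members were called higher and 9 lower, against 13.9% and 13.6% of 7867 genes. The median log2 ratio was -0.19 over the members and 0.06 over all genes. The interval lay wholly past 2-fold for 6 of the 12 called members, Ezh2, Hdac8, Kdm5b, Kdm6b, Kdm7a and Setd4. With a library total that leaves out mitochondrial and ribosomal protein genes, which shifts every log2 ratio of pro-B over CLP by -0.31, the split was 2 higher and 13 lower. The median log2 ratio over all genes tested moved to -0.25 under that total. The share of all genes called under it is not given here, so this split is no result about members against other genes. Some calls were lost under other settings, as for Kmt2d and Hdac4 with median-of-ratios scaling (log2 -0.94 and -0.96) and for Kdm5b, Setd7 and Sirt3 with equal weight for every cell (-0.89, -0.90 and -0.98). For pro-B cells against LMPP, 5 of 51 members were higher and 6 lower, where 14.7% of 7995 genes were called in each direction. Under the same other total the split was 3 higher and 13 lower, with a median log2 ratio of -0.28 over all genes tested. It carries the same limit. Comparisons of pro-B with CLP and with LMPP share the pro-B library and are not independent.

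**Figure D2:**
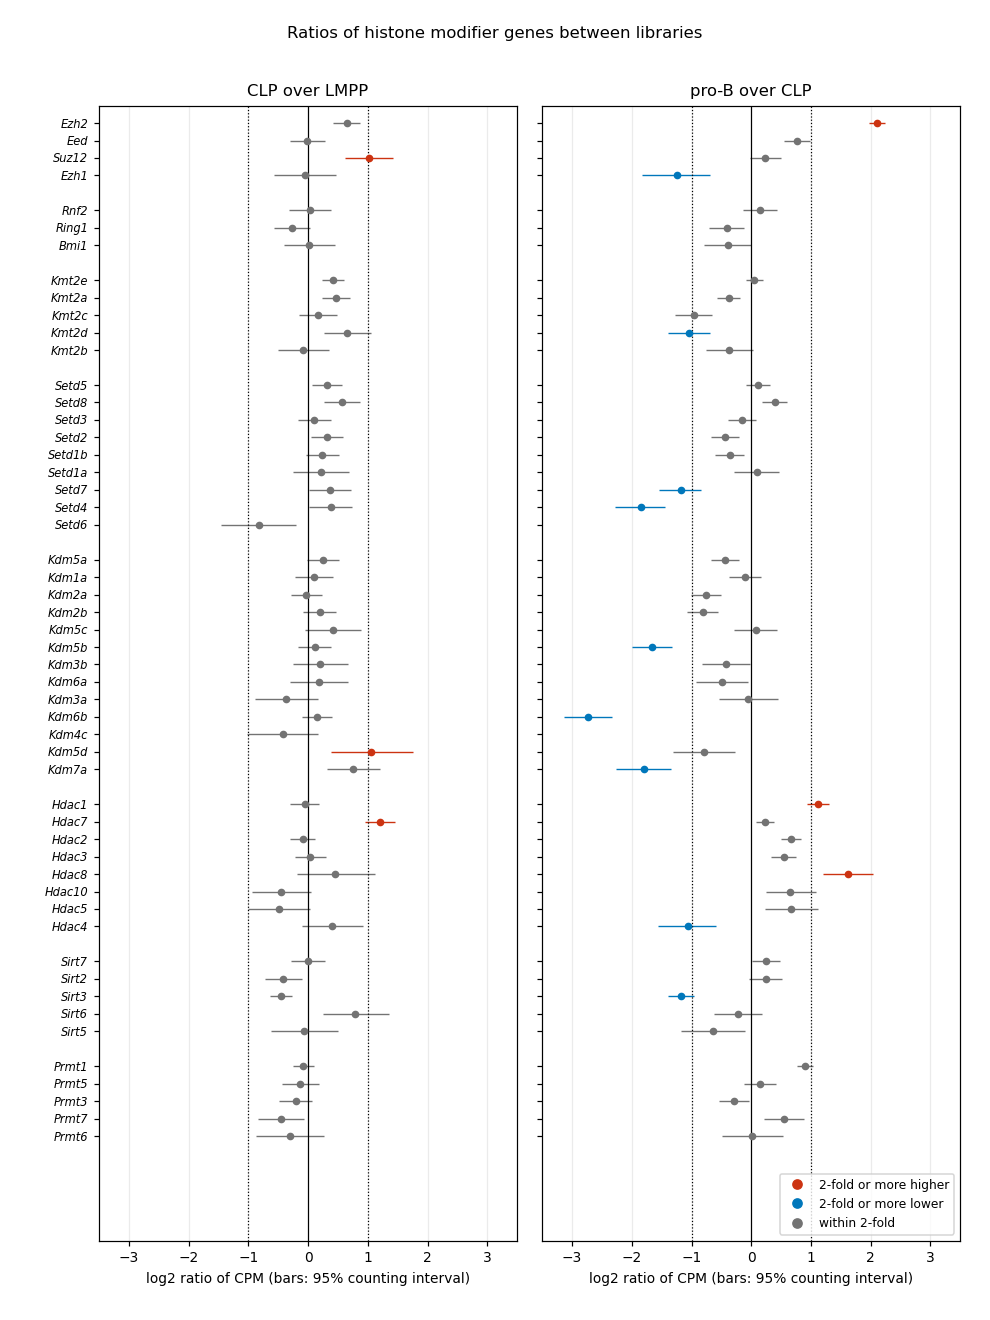
Log2 ratio of CPM for members with 10 CPM or more in either library, CLP over LMPP (left) and pro-B over CLP (right), with bars for the 95% counting interval and dotted lines at 2-fold. In the right panel 9 members lie at or left of the lower line, led by Kdm6b, and 3 at or right of the upper line, led by Ezh2.

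Among the PRC2 genes, Ezh2, the catalytic subunit typical of dividing cells, had 242, 562 and 2988 UMIs along the LMPP, CLP and pro-B libraries. This was 60.3 CPM (52.9 to 68.4) in LMPP, 94.2 CPM (86.6 to 102) in CLP and 406 CPM (391 to 420) in pro-B cells, with no overlap between the intervals. The ratio was 4.31-fold for pro-B over CLP (log2 2.11, 1.98 to 2.24) and 6.73-fold for pro-B over LMPP (log2 2.75, 2.56 to 2.95). Of all genes tested, 4.11% had a ratio of pro-B over CLP as high as that of Ezh2 or higher. CLP stood 1.56-fold above LMPP (log2 0.64, 0.42 to 0.87), which was not past 2-fold. In cells thinned to 2000 UMIs, an Ezh2 UMI was found in 9.95% of LMPP, 14.6% of CLP and 48.2% of pro-B cells. Without thinning these shares were 28.3%, 34.4% and 76.0%. No sorted cell type here should lack Ezh2, so the part of these shares that came from free RNA could not be read. Among lineage genes, Vpreb1, a surrogate light chain gene, was found in 0.698% of thinned LMPP cells against 98.8% of pro-B cells. Cd34 was found in 0 of 1070 pro-B cells (upper exact limit 0.344%) against 63.7% of LMPP cells. Each population was a separate library, so these shares follow the sort and do not measure free RNA within a library.

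Ezh1, the catalytic subunit typical of resting cells, was at 13.7 CPM (10.3 to 17.8) in LMPP, 13.2 CPM (10.5 to 16.5) in CLP and 5.57 CPM (3.99 to 7.55) in pro-B cells, from 55, 79 and 41 UMIs. LMPP and CLP overlapped and pro-B cells lay below both. Pro-B cells were 2.38-fold below CLP (log2 -1.25, -1.83 to -0.69). Of the UMIs of the pair Ezh2 and Ezh1, the share of Ezh2 was 81.5% (76.6 to 85.7) in LMPP, 87.7% (84.9 to 90.1) in CLP and 98.6% (98.2 to 99.0) in pro-B cells. Capture can differ between the genes of a pair, so these shares are read as a change across libraries.

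Suz12, the scaffold subunit, differed at the earlier step. It was at 17.7 CPM (13.8 to 22.3) in LMPP, 35.7 CPM (31.1 to 40.8) in CLP and 42.1 CPM (37.5 to 47.0) in pro-B cells. CLP was 2.02-fold above LMPP (log2 1.01, 0.62 to 1.42, or 0.98 under the total without mitochondrial and ribosomal protein genes), and pro-B cells were 1.18-fold above CLP (log2 0.24, -0.02 to 0.50). Eed, the reader subunit, was at 41.9 CPM (35.8 to 48.7), 41.4 CPM (36.4 to 46.9) and 70.3 CPM (64.4 to 76.6) in LMPP, CLP and pro-B cells, 1.70-fold higher in pro-B cells than in CLP. The 4 core subunits therefore did not differ alike: Ezh2 and Eed were highest in pro-B cells, Suz12 was at its low in LMPP and Ezh1 at its low in pro-B cells.

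**Figure D3:**
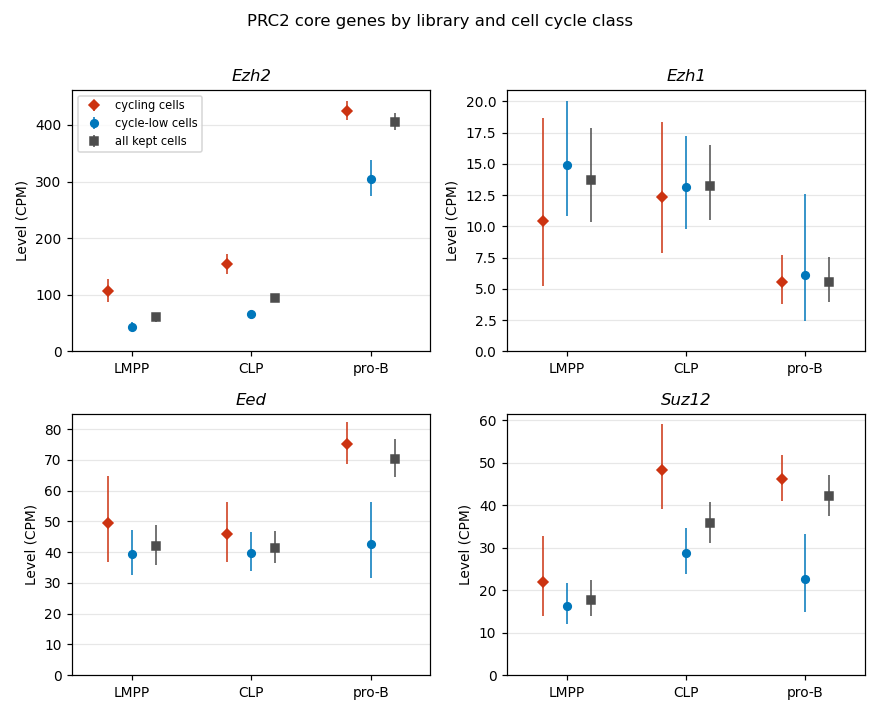
Levels (CPM) of Ezh2, Ezh1, Eed and Suz12 in cycling cells, cycle-low cells and all kept cells of each library, with exact Poisson 95% intervals. Ezh2 in cycle-low pro-B cells, at 305 CPM, lies above every LMPP and CLP value, whereas Suz12 in cycle-low pro-B cells, at 22.6 CPM, lies below the cycle-low CLP value of 28.8 CPM with overlapping bars.

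The PRC1 genes stayed within 2-fold in all 3 comparisons. Ring1, one of the alternative ubiquitin ligases, was at 41.3 CPM (35.3 to 48.1) in LMPP, 34.2 CPM (29.7 to 39.2) in CLP and 25.8 CPM (22.3 to 29.7) in pro-B cells, a 1.60-fold lower level in pro-B cells than in LMPP. Rnf2, the other ligase, was at 28.1, 28.8 and 31.9 CPM, with overlapping intervals. Bmi1, known for its role in the self-renewal of blood stem cells, was at 19.2, 19.4 and 14.8 CPM, and its intervals overlapped as well.

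In pro-B cells against CLP, 3 of 12 tested demethylase (Kdm) genes were lower and 0 higher, where 13.6% of all genes tested were lower and 13.9% higher. Their median log2 ratio was -0.62, against 0.06 over all genes tested. Of the 12 ratios 11 were below 0, against 3713 of 7867 for all genes tested. Among the cells low in cell cycle genes compared below, Kdm6b was the only Kdm gene called lower. Kdm6b (Jmjd3), which removes methyl groups from lysine 27 of histone H3, was at 51.8 CPM (45.0 to 59.4) in LMPP, 57.5 CPM (51.6 to 63.9) in CLP and 8.69 CPM (6.69 to 11.1) in pro-B cells, from 208, 343 and 64 UMIs. LMPP and CLP overlapped and pro-B cells were far below. The ratio of pro-B over CLP was -2.73 on the log2 scale (-3.13 to -2.34), 6.62-fold lower, and 3.18% of all genes tested had a ratio as low or lower. The antisense gene within the Kdm6b locus had the 1 UMI given above.

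Kdm6a (Utx), the X-linked relative of Kdm6b, was at 14.7, 16.6 and 11.8 CPM across LMPP, CLP and pro-B cells, within 2-fold throughout. The share of Kdm6b in the UMIs of this pair was 77.9% (72.4 to 82.7) in LMPP, 77.6% (73.4 to 81.4) in CLP and 42.4% (34.4 to 50.7) in pro-B cells. Kdm6b was thus the more counted of the pair before the pro-B stage, and in pro-B cells its interval included an equal share. Split by the cell cycle classes described below, its share in pro-B cells was 35.1% (26.3 to 44.8) in cycling and 60.5% (43.4 to 76.0) in cycle-low cells, against 72.4% and 78.3% in CLP, so the gene with more UMIs differed between the pro-B classes.

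**Figure D4:**
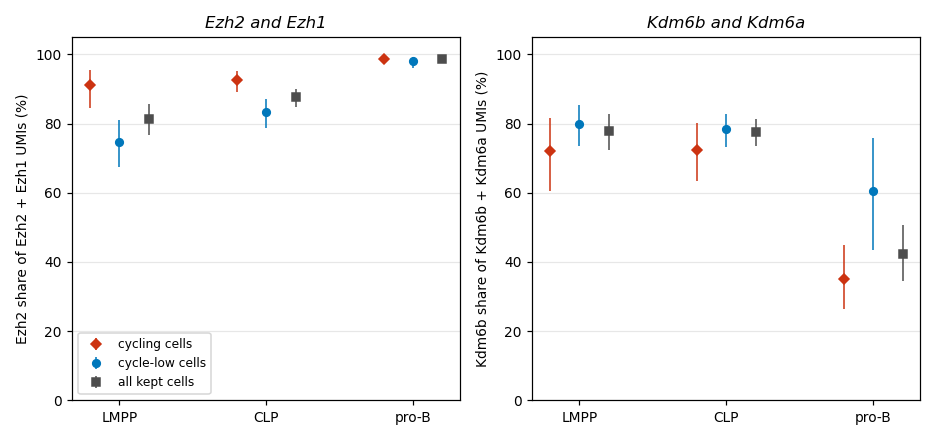
Share (%) of Ezh2 in the UMIs of Ezh2 and Ezh1 (left) and of Kdm6b in the UMIs of Kdm6b and Kdm6a (right), in cycling cells, cycle-low cells and all kept cells, with exact Clopper-Pearson 95% intervals. The Ezh2 share is 98.6% in pro-B cells with little difference between the classes, and the Kdm6b share of all kept cells is 42.4% in pro-B cells against 77.6% in CLP.

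Kdm5b, which removes methyl groups from lysine 4 of histone H3 at promoters, was at 43.6 CPM (37.4 to 50.5) in LMPP, 47.1 CPM (41.7 to 52.9) in CLP and 14.9 CPM (12.3 to 18.0) in pro-B cells. It was 3.15-fold lower in pro-B cells than in CLP (log2 -1.66, -1.99 to -1.33). Kdm7a, a demethylase of repressive marks, was at 15.4 CPM (11.8 to 19.8), 26.0 CPM (22.0 to 30.4) and 7.47 CPM (5.62 to 9.72), with its high in CLP. It was 3.48-fold lower in pro-B cells than in CLP (log2 -1.80, -2.27 to -1.35) and 2.07-fold lower than in LMPP. Kdm5a, a close relative of Kdm5b, differed less, at 46.1, 55.0 and 40.6 CPM across LMPP, CLP and pro-B cells. Kdm2a, a demethylase with a CpG-binding domain, was at 31.5 CPM in pro-B cells against 53.0 CPM in CLP, 1.68-fold lower.

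Kdm5d, the relative of Kdm5b on the Y chromosome, was at 6.23 CPM (4.03 to 9.19) in LMPP, 12.9 CPM (10.2 to 16.1) in CLP and 7.47 CPM (5.62 to 9.72) in pro-B cells. CLP was 2.07-fold above LMPP (log2 1.05, 0.38 to 1.76), on 77 and 25 UMIs. Of the other Y-linked genes, Uty was at 17.1 CPM in CLP against 9.96 CPM in LMPP, Ddx3y at 41.2 against 34.4 CPM and Eif2s3y at 37.9 against 37.9 CPM, and Xist had 0, 0 and 1 UMIs in LMPP, CLP and pro-B. The level of Kdm5d also depended on which cells were counted, and with all cells holding 3 or more UMIs of other lineages left out the log2 ratio was 0.19.

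Methyltransferase genes were mostly within 2-fold, as were all genes tested. In pro-B cells against CLP, 1 of 5 Kmt genes was lower and 0 higher, where 13.6% of all genes tested were lower and 13.9% higher. Of the 5 Kmt genes, which encode the MLL family, Kmt2d was the member called, at 19.9 CPM (15.8 to 24.8) in LMPP, 31.3 CPM (27.0 to 36.2) in CLP and 15.2 CPM (12.5 to 18.3) in pro-B cells. Kmt2d methylates enhancers, and it was 2.06-fold lower in pro-B cells than in CLP (log2 -1.04, -1.39 to -0.70). It was called in neither of the cell cycle classes described below (log2 -0.74 among cycling cells). Its relative Kmt2c lay just inside 2-fold, with a log2 ratio of -0.96. Kmt2a (MLL1), at 58.0, 80.1 and 61.6 CPM, and Kmt2e (MLL5), at 90.2, 121 and 125 CPM, stayed within 2-fold.

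Among the Setd genes, 2 of 8 were lower in pro-B cells than in CLP, where 13.6% of all genes tested were lower. Setd4 was at 24.9 CPM (20.3 to 30.3) in LMPP, 32.3 CPM (27.9 to 37.2) in CLP and 8.96 CPM (6.93 to 11.4) in pro-B cells, 3.61-fold lower in pro-B cells than in CLP (log2 -1.85, -2.28 to -1.44). Setd7, which adds 1 methyl group to lysines of histone H3 and of other proteins, was at 25.4, 32.7 and 14.4 CPM, 2.27-fold lower in pro-B cells than in CLP (log2 -1.18, -1.54 to -0.83). Setd8 (Kmt5a), a histone H4 methyltransferase of mitosis, was at 35.1 CPM (29.6 to 41.4), 52.0 CPM (46.3 to 58.1) and 68.3 CPM (62.4 to 74.5) in LMPP, CLP and pro-B cells, 3 levels whose intervals did not overlap. It was 1.94-fold higher in pro-B cells than in LMPP, just inside 2-fold. Setd5 was at 51.1, 63.7 and 69.0 CPM.

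In pro-B cells against CLP, 2 of 8 tested deacetylase (Hdac) genes were higher and 1 lower, where 13.9% of all genes tested were higher and 13.6% lower. The median log2 ratio was 0.66, against 0.06 over all genes tested. Of the 8 ratios 7 were above 0, against 4154 of 7867 for all genes tested. Hdac1, the class I enzyme of the Sin3 and NuRD complexes, was at 59.5 CPM (52.2 to 67.6) in LMPP, 57.3 CPM (51.4 to 63.7) in CLP and 124 CPM (116 to 132) in pro-B cells, 2.16-fold higher in pro-B cells than in CLP (log2 1.11, 0.93 to 1.30). Under the total without mitochondrial and ribosomal protein genes that log2 ratio was 0.80 and the call was lost. Hdac2, the close relative of Hdac1 in the same complexes, was 1.58-fold higher in pro-B cells (118 CPM against 74.7 CPM in CLP).

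Hdac8, an X-linked class I enzyme known for acting on cohesin, was at 7.72 CPM (5.25 to 11.0) in LMPP, 10.6 CPM (8.11 to 13.5) in CLP and 32.3 CPM (28.3 to 36.7) in pro-B cells. Pro-B cells lay above both, at 3.06-fold over CLP (log2 1.61, 1.21 to 2.04) and 4.18-fold over LMPP (log2 2.06, 1.52 to 2.65). Hdac7, a class IIa enzyme known in mouse to be needed for pro-B cell development, separated LMPP from the rest instead. It was at 43.8 CPM (37.6 to 50.8) in LMPP, 101 CPM (92.8 to 109) in CLP and 119 CPM (111 to 127) in pro-B cells, 2.30-fold higher in CLP than in LMPP (log2 1.20, 0.96 to 1.45). Hdac4, also of class IIa, was at 12.7, 16.8 and 8.01 CPM, 2.09-fold lower in pro-B cells than in CLP (log2 -1.07, -1.55 to -0.59).

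Of 5 tested sirtuin genes, 1 was lower in pro-B cells than in CLP, where 13.6% of all genes tested were lower. Sirt3, a deacetylase that acts mainly in mitochondria, was the one called. Its level was 111 CPM (101 to 122) in LMPP, 81.1 CPM (74.0 to 88.7) in CLP and 35.8 CPM (31.6 to 40.4) in pro-B cells, with no overlap between the 3. It was 2.26-fold lower in pro-B cells than in CLP (log2 -1.18, -1.40 to -0.96) and 3.09-fold lower than in LMPP. Against CLP it was called in neither of the cell cycle classes described below (log2 -0.98 among cycling cells). Sirt7, a nucleolar enzyme whose gene overlaps Mafg on the same strand, was at 42.6, 42.4 and 50.1 CPM. No arginine methyltransferase gene was called, with 5 tested for pro-B over CLP, where 13.9% of all genes tested were higher and 13.6% lower. Prmt1, the main enzyme of asymmetric arginine methylation, came nearest, at 205 CPM (194 to 215) in pro-B cells against 110 CPM (102 to 119) in CLP, 1.86-fold higher (log2 0.90, 0.76 to 1.03). Prmt3, an enzyme of the cytoplasm, was at 50.6, 43.7 and 35.8 CPM across LMPP, CLP and pro-B cells.

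The partners of these enzymes were read from a list of 91 further genes of the same complexes and reactions. In pro-B cells against CLP, 9 of 85 tested were higher (10.6%) and 5 lower (5.88%), with a median log2 ratio of 0.05. Both shares are below the 13.9% and 13.6% of all genes tested, so the genes named here are a description of single genes and not a result about the list. Rbbp4, a histone-binding subunit of PRC2 and of deacetylase complexes, was at 305 CPM in pro-B cells against 115 CPM in CLP (log2 1.41), and its relative Rbbp7 at 176 against 83.5 CPM (log2 1.07). Mtf2, an accessory subunit of PRC2, stayed within 2-fold at 127 CPM in pro-B cells and 102 CPM in CLP. Jarid2, another accessory subunit, was at 15.7 CPM in pro-B cells against 32.0 CPM in CLP (log2 -1.02). Rybp, a subunit of the variant PRC1 complexes, was at 3.80 CPM in pro-B cells against 11.4 CPM in CLP (log2 -1.58).

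Outside the Polycomb complexes, the histone acetyltransferase gene Hat1 was higher in pro-B cells than in CLP (68.3 against 24.5 CPM, log2 1.48), as were the deacetylase partners Sin3b (log2 1.42), Mbd2 (1.25) and Sap18 (1.16), the methyltransferases Suv39h2 (1.28) and Whsc1 (Nsd2; 1.15) and the MLL partner Psip1 (1.05). Chd3, a NuRD helicase, was lower at 59.2 CPM in pro-B cells against 148 CPM in CLP (log2 -1.32), and Smyd2 and Mta3 were lower with a log2 ratio of -1.09 each. Mta3, a NuRD subunit, was also the 1 of 84 genes called between CLP and LMPP, at 302 CPM in CLP against 85.2 CPM in LMPP (log2 1.83). That was 1.19% of the genes of the list tested, where 4.36% of all genes were higher and 3.59% lower. In pro-B cells against LMPP, 10 of 87 were higher (11.5%) and 6 lower (6.90%), also below the 14.7% of all genes called each way. Those called there and not between pro-B and CLP were Men1 (log2 1.06), Paxip1 (1.31), Kat8 (1.05) and Scmh1 (1.07) above, and Phf1 (-1.90), Cbx8 (-1.05) and Smyd3 (-1.11) below.

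The levels of cell division genes also differed between the libraries. Along LMPP, CLP and pro-B, 18 S phase genes summed to 850, 1049 and 2720 CPM and 18 G2/M genes to 230, 333 and 4112 CPM. Cells with 3 or more UMIs of the S phase list or of the G2/M list, after thinning to 2000 UMIs, are called cycling here and the rest cycle-low. The cycling share was 22.5% of 573 LMPP, 28.7% of 908 CLP and 68.2% of 1070 pro-B cells. A further 6, 40 and 36 cells had fewer than 2000 UMIs and were left out. These classes are ranges of a count and not cell types, and 139, 231 and 202 cells had 2 or 3 UMIs of the list with more of them. In pro-B cells the classes also differed in depth, with means of 8425 UMIs in cycling and 3377 UMIs in cycle-low cells, and in the summed level of B lineage genes, at 13620 CPM in cycling and 28533 CPM in cycle-low cells. In CLP the summed level of 7 dendritic cell genes was 868 CPM in cycling against 455 CPM in cycle-low cells.

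Ezh2 was at higher levels in cycling cells. It was at 106 CPM in cycling against 44.1 CPM in cycle-low LMPP cells (log2 1.27, 0.89 to 1.65), at 154 against 65.4 CPM in CLP (log2 1.23, 0.99 to 1.48) and at 425 against 305 CPM in pro-B cells (log2 0.48, 0.32 to 0.64). With the cut between the classes at 1 UMI the pro-B ratio was 0.26 (-0.13 to 0.67), which includes equality. The difference between populations was present in each class. Among cycle-low cells alone, Ezh2 was 4.66-fold higher in pro-B cells than in CLP (log2 2.22, 1.98 to 2.46), and among cycling cells 2.76-fold higher (log2 1.47, 1.29 to 1.64). The Ezh2 share of the Ezh2 and Ezh1 UMIs in cycle-low cells was 74.7%, 83.3% and 98.0% in LMPP, CLP and pro-B.

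Kdm6b and Hdac8 also kept their difference within both classes. Among cycle-low cells Kdm6b was at 20.0 CPM in pro-B against 61.2 CPM in CLP (log2 -1.61, -2.30 to -0.99), and among cycling cells at 6.34 against 43.2 CPM (log2 -2.77, -3.36 to -2.20). Hdac8 was at 57.5 CPM in cycle-low pro-B cells against 13.1 CPM in cycle-low CLP cells (log2 2.13, 1.58 to 2.68), and at 27.5 against 5.66 CPM in cycling cells (log2 2.28, 1.40 to 3.31). Within pro-B cells Hdac8 was thus lower in cycling than in cycle-low cells per 1000000 UMIs (log2 -1.06, -1.48 to -0.63), while its UMIs per cell were 0.232 in cycling and 0.194 in cycle-low cells.

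Kdm5b had a large difference between the cell cycle classes of pro-B cells. In pro-B cells it was at 4.88 CPM in cycling and 66.2 CPM in cycle-low cells, a log2 ratio of -3.76 (-4.42 to -3.14). Even per cell, with the deeper cycling cells, its UMIs were 0.041 in cycling against 0.224 in cycle-low pro-B cells. With the cut between the classes at 1 or at 6 UMIs the pro-B ratio was -2.53 or -3.58. It was also lower in cycling cells of LMPP (21.8 against 51.5 CPM, log2 -1.24) and of CLP (29.3 against 54.1 CPM, log2 -0.88), although with the cut at 1 UMI the LMPP ratio was -0.34 (-0.80 to 0.14). Among cycle-low cells alone its level was 66.2 CPM in pro-B against 54.1 CPM in CLP (log2 0.29, -0.11 to 0.68), so the lower level of the whole pro-B library was not found in that class. Among cycling cells pro-B lay below CLP (log2 -2.59, -3.28 to -1.93).

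Kdm7a was at lower levels in cycling cells too. It was at 4.55 CPM in cycling against 23.5 CPM in cycle-low pro-B cells (log2 -2.37), 14.4 against 32.1 CPM in CLP (log2 -1.16) and 5.69 against 18.6 CPM in LMPP (log2 -1.71). With the cut at 1 UMI the ratio was -2.46 in pro-B cells, but -0.25 (-0.77 to 0.29) in CLP and -0.69 (-1.47 to 0.11) in LMPP, both reaching equality. Among cycle-low cells its ratio of pro-B over CLP was -0.45 on the log2 scale (-1.11 to 0.16). Setd4 and Setd7 were also lower in cycling pro-B cells (7.32 against 18.3 CPM and 12.2 against 25.3 CPM), and in cycle-low cells alone their ratios of pro-B over CLP were -0.97 and -0.31.

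**Figure D5:**
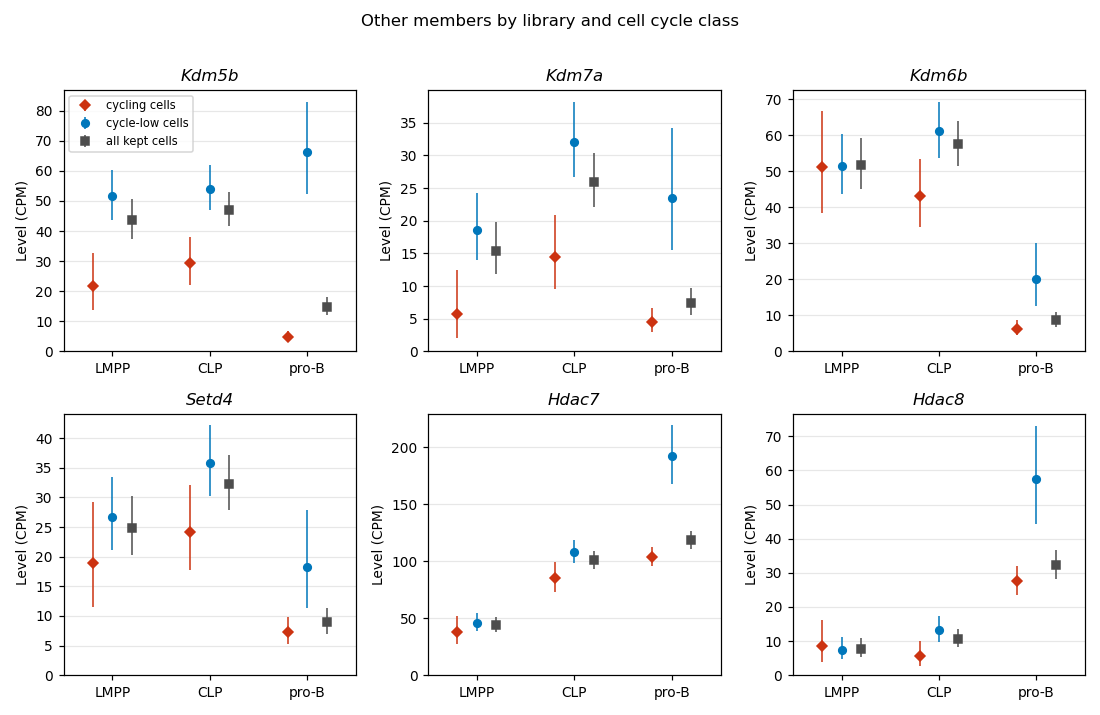
Levels (CPM) of Kdm5b, Kdm7a, Kdm6b, Setd4, Hdac7 and Hdac8 in cycling cells, cycle-low cells and all kept cells of each library, with exact Poisson 95% intervals. Cycle-low pro-B cells reach 66.2 CPM of Kdm5b, not below cycle-low LMPP and CLP cells, but 20.0 CPM of Kdm6b, below both.

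Suz12 and Eed were higher in cycling than in cycle-low pro-B cells. Suz12 was at 46.2 against 22.6 CPM (log2 1.03, 0.45 to 1.67) and Eed at 75.3 against 42.7 CPM (log2 0.82, 0.39 to 1.27). For Suz12 a cut between the classes at 1 UMI gave 0.76 (-0.61 to 2.65), which includes equality. A cut at 6 UMIs gave 0.75 (0.34 to 1.17). In cycle-low cells Suz12 was at 22.6 CPM in pro-B against 28.8 CPM in CLP (log2 -0.35, -1.02 to 0.28) and Eed at 42.7 against 39.7 CPM (log2 0.11, -0.39 to 0.58). Of the 4 core subunits, Ezh2 and Ezh1 therefore kept a difference past 2-fold in both classes, although for Ezh1 the cycle-low interval reached equality (log2 -1.11, -2.49 to 0.04). Hdac1 was 2.29-fold higher in pro-B cells than in CLP among cycle-low cells (log2 1.19, 0.86 to 1.53) and 1.67-fold higher among cycling cells (log2 0.74, 0.49 to 1.01).

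Over all members, 3 of 54 were higher and 15 lower in cycling than in cycle-low pro-B cells, against 10% and 14.3% of all genes tested, with a median log2 ratio of -0.45 for the members and -0.16 for all genes. The higher ones were Suz12, Prmt5 (41.3 against 18.3 CPM) and Prmt7 (31.7 against 14.8 CPM). Suz12 was within 2-fold with the cut between the classes at 1 or at 6 UMIs. The lower ones included Hdac11 (4.72 against 30.5 CPM), Prmt2 (3.41 against 15.7 CPM), Kdm4c (6.02 against 20.0 CPM), Hdac5 (14.3 against 34.8 CPM) and Kdm5a (34.1 against 72.3 CPM). In LMPP 1 of 52 members was higher and 4 lower, against 3.59% and 2.4% of all genes, and in CLP 1 of 52 was higher and 2 lower, against 4.44% and 1.38%. Ezh2 was the higher one in both.

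Taking cycle-low cells alone, 6 of 56 members were higher and 3 lower in pro-B than in CLP, against 16.6% and 13% of all genes. The higher ones were Hdac8, Hdac1, Ezh2, Hdac11, Hdac5 and Sirt4, and the lower ones Kdm6b, Ezh1 and Hdac4. Hdac5 was at 34.8 CPM in cycle-low pro-B cells against 9.35 CPM in cycle-low CLP cells (log2 1.90, 1.22 to 2.58), and Hdac11 at 30.5 against 5.81 CPM (log2 2.39, 1.59 to 3.22), on 40 and 35 UMIs in pro-B cells. In cycling cells alone, 2 of 51 members were higher (Ezh2 and Hdac8) and 6 lower (Kdm5b, Kdm6b, Kdm7a, Setd4, Setd7 and Ezh1), against 10.9% and 14.4%. For CLP over LMPP, 3 of 51 members were higher (Hdac7, Suz12 and Kdm7a) and 1 lower (Kdm4c) among cycling cells, against 6.48% and 5.01% of all genes, and among cycle-low cells 2 of 53 were higher (Hdac7 and Kdm5d) and 0 lower, against 4.62% and 4.26%. For pro-B over LMPP, 5 of 49 were higher and 7 lower among cycling cells, against 13.3% and 16.4%, and 8 of 56 were higher and 4 lower among cycle-low cells, against 15.6% and 13.9%. For pro-B over CLP, the sets called in the classes had Ezh2, Hdac8, Kdm6b and Ezh1 in common. How far cell depth and B lineage level, which moved with the class, bear on these values was not tested.

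Within CLP, cells were also split by a UMI of Ebf1, the early B lineage factor. Of 50 members, 0 were 2-fold higher or lower in the 376 Ebf1-positive thinned cells against the 532 others, where 0.986% of all genes were higher and 1.54% lower, shares under which fewer than 1 of 50 members would be called each way. Ezh2 was at 78.1 CPM in Ebf1-positive and 106 CPM in Ebf1-negative CLP cells (log2 -0.43, -0.70 to -0.18), the opposite sign to the ratio of pro-B over CLP. Kdm6b was at 50.1 and 58.7 CPM in the same order (log2 -0.23, -0.57 to 0.10), and Hdac7 at 115 and 90.6 CPM (log2 0.35, 0.11 to 0.59). In cycle-low CLP cells alone the Ezh2 ratio was -0.22 (-0.59 to 0.15).

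Within LMPP, 271 thinned cells had a UMI of the myeloid genes Mpo or Prtn3 and 302 had none. Against the cells without, 0 of 52 members were higher and 1 lower in the cells with such a UMI, against 0.738% and 1.13% of all genes. The lower one was Kdm6a, at 9.45 CPM with and 19.5 CPM without a myeloid UMI (log2 -1.05, -1.93 to -0.21), on 18 and 41 UMIs. Ezh2 was at 63.0 and 58.1 CPM and Kdm6b at 51.5 and 51.4 CPM in the same order.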

How the data were processed

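Each library was deposited as whole UMI counts by gene and barcode. The authors ran Cell Ranger with the mm10 build, per the submitters' processing notes, with version and annotation not given in the sources used here. Cells needed 500 genes and no more than 10% of UMIs from mitochondrial genes (579 of 599 LMPP, 948 of 979 CLP, 1106 of 1123 pro-B). Scrublet, as run in scanpy 1.11.5, called 30, 14 and 2 cells as doublets. They were kept, and left out as an alternative. Counts were summed over cells and scaled to CPM (Python 3.11.15, NumPy 2.4.6, SciPy 1.17.1). Intervals are exact Poisson, conditional binomial or Clopper-Pearson at 95%, and cover counting error only. A library at 0 was set to 3 UMIs for a ratio. The code was tested on simulated counts. Shares of cells and cell cycle classes used 2000 UMIs drawn per cell.

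Coordinates and overlaps come from GENCODE M21, which matched all 66 members by gene ID, and promoter windows from RefSeq. A 3' tag count does not scale with transcript length. Named are the 7 Polycomb genes, every called member and the 2 most abundant of each other family. Of the further genes, those called are named. Mtf2, Kdm6a, Kmt2c, Hdac5, Hdac11 and the other members named in the class comparisons were chosen after their values were seen. The members and lists were chosen with earlier results of these data known. Alternatives changed the scaling, the minimum level, the fold and the cells used. Cultured cells of the study were not analysed here.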

Additional observations from a re-analysis of the deposited data

How the results depend on the processing

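Of 3, 12 and 11 members called (CLP against LMPP, pro-B against CLP, pro-B against LMPP), a minimum of 50 CPM left 1, 4 and 5, a 4-fold threshold 0, 2 and 3, and a 1.5-fold threshold gave 8, 22 and 22. With no minimum except 1 UMI, 7 were called for CLP over LMPP. Counts under other settings in this section are given without the share of all genes, and are no result about members against other genes. In cycle-low cells alone the log2 ratio of Kdm5b turned to 0.29 for pro-B against CLP and 0.36 for pro-B against LMPP, and that of Kdm7a to 0.33 (pro-B over LMPP). Kdm6b, Ezh1, Ezh2, Hdac8 and, over LMPP, Hdac7 kept their calls in pro-B comparisons under the other totals, scaling, barcode and lineage filters and weighting and in cycle-low cells, Ezh2 over CLP between 1.79 and 2.57. In cycling cells alone, Ezh2 over CLP was at 1.47, and Ezh1 over LMPP was at -0.92 and lost its call. Suz12 (CLP over LMPP) was at 0.98 and Hdac1 (pro-B over CLP) at 0.80 under the total without mitochondrial and ribosomal protein genes. Hdac4 and Kmt2d (pro-B over CLP) were at -0.96 and -0.94 under median-of-ratios scaling. With equal weight per cell, Kdm5b, Setd7 and Sirt3 were at -0.89, -0.90 and -0.98. The median of the members for pro-B over CLP was -0.50 under the total without mitochondrial and ribosomal protein genes and 0.12 in cycle-low cells alone. Over all genes tested the median was -0.25 and 0.18 in the same order. The planned exclusion of cells with 3 or more UMIs of other lineages left out 403 LMPP, 622 CLP and 13 pro-B cells, so a limit of 10 UMIs was added after seeing the data, which left out 55, 152 and 1 and gave 3, 13 and 11 calls. The cause of these changes was not tested. No paired analysis was possible because each population has 1 library.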
